A study of Mus musculus with 8 samples.

Results

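The effector genes of killer lymphocytes and the inhibitory receptors that restrain them were followed in mouse tongue epithelium after oncogenes had been switched on in its basal cells. The 10 genes, chosen by symbol from the 32285 genes of the count matrices, were 5 effectors (Gzmb, Gzmc, Gzmk, Prf1 and Fasl) and 5 checkpoint receptors (Pdcd1, Lag3, Havcr2, Tigit and Ctla4). The rule used their symbols, and the gates that defined the cells used other marker genes. Granzymes are serine proteases held in lytic granules, perforin (Prf1) opens the membrane of a target cell to them, and Fas ligand (Fasl) triggers death through the receptor Fas. PD-1 (Pdcd1), LAG-3 (Lag3), TIM-3 (Havcr2), TIGIT (Tigit) and CTLA-4 (Ctla4) are induced or kept on the surface of stimulated T cells and dampen their response, and CTLA-4 is also constitutive on regulatory T cells. In squamous epithelium such cells include CD8 T cells, regulatory T cells, resident gamma-delta T cells and NK cells.

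All mice carried Krt14-CreERT and LSL-rtTA, so that tamoxifen injected into the tongue and doxycycline chow turned on tet-driven transgenes in keratin-14-positive epithelial cells. N mice had no effector transgene, E mice carried tetON_E6-E7 (the HPV16 oncoproteins), Y mice tetON_YAP1S127A (a YAP1 that escapes Hippo inhibition), and EY mice both, and a tetON_H2B-GFP reporter is named in the study's methods but not in the labels. Mice were littermates of 8 to 16 weeks, the whole tongue epithelium was taken at day 15 of induction, and viable sorted cells were profiled, with 2 libraries per genotype. The transgenes were therefore placed in epithelium and not in the lymphocytes measured here. E6 and E7 transcripts were not in the count matrices, so the E label could not be checked, whereas Yap1 in epithelial cells was 33.0 to 48.4 UPM (a gene's unique molecules, UMIs, on a per-million scale of all UMIs of the cells in question) in the 4 libraries without the YAP transgene and 167.1 to 465.8 UPM in the 4 with it.

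Of 42550 deposited cell barcodes, 25199 passed the limits on genes, molecules and mitochondrial share, and 4955 of these held a Cd3e molecule. CD8 T cells (Cd8a or Cd8b1, no Cd4, no Trdc) numbered 2978, CD4 T cells 721, Trdc-positive T cells 252 and Ncr1-positive, Cd3e-negative NK cells 478, while 1004 Cd3e-positive cells were in none of these gates. Marker genes of the CD8, NK and Trdc gates differed in the direction of their names, although transcripts of other cells were also present, as given below. The 9 T cell genes summed to between 4327 and 7278 UPM in CD8 T cells and to between 656.9 and 1363 UPM in NK cells, and Cd163l1, a gene of gamma-delta T cells, was at 468.6 to 818.6 UPM in Trdc cells and at most 4.41 UPM in CD8 T cells. Library Y1 stood apart, with 1779 of the 2978 CD8 T cells. Median depth in CD8 T cells ranged from 3623 to 8314 UMIs per cell across libraries. Between 2 and 19 cell barcodes were shared by each of the 28 pairs of libraries, at most 1 of them among T and NK cells. Molecules of these genes were also seen in epithelial cells, whose median depth was 12560 to 23820 UMIs, and free RNA was not told apart from droplets that held a second cell. Gzmc was found in 10.6% of 1273 epithelial cells of Y1 and in at most 0.471% elsewhere, and Gzmb in 4.16% in Y1, 2.14% in EY1, 1.27% in EY2 and at most 0.248% in the others. The remaining 8 genes were found in at most 1.57% of epithelial cells of any library.

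Gzmb and Gzmc lie 24182 bases apart on chromosome 14, at chr14:56258838-56262260 and chr14:56231441-56234656 (GRCm38, both on the minus strand), in a cluster of related granzyme genes whose similar sequence leaves the split of reads between neighbours uncertain. The 250 bases before their RefSeq starts are shown because these granzymes had the largest EY against N differences of the set in CD8 T cells, together with those of Prf1, the gene with the largest difference between CD8 and CD4 T cells. Each is written 5′ to 3′ on the gene's own strand, with letters matching an AP-1 motif (TGANTCA) or a Runx motif (TGTGGT, or ACCACA on the other strand) in capitals.
Gzmb promoter, chr14:56262335-56262584, GRCm38.p6, minus strand: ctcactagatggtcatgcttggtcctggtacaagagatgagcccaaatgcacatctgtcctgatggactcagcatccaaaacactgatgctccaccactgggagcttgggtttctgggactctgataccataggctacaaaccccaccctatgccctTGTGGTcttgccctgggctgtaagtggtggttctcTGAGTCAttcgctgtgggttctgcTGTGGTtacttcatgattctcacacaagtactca
Gzmc promoter, chr14:56234658-56234907, GRCm38.p6, minus strand: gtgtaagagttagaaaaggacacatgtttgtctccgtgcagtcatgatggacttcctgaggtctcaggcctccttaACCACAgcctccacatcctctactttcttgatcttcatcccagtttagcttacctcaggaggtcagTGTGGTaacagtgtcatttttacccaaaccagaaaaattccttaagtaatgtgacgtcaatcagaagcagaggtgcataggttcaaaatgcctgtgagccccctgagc
Prf1 promoter, chr10:61297586-61297835, GRCm38.p6, plus strand: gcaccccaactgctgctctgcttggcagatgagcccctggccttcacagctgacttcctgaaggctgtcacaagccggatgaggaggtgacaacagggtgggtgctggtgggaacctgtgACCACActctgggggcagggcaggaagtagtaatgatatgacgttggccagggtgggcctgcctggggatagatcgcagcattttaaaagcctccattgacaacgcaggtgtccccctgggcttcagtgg
Runx factors and AP-1 are transcription factors of activated T cells. RefSeq windows were matched for 9 of the 10 genes, all but Lag3. A Runx match was present in 5 of 9 windows (Gzmb, Gzmc, Prf1, Havcr2 and Tigit), against 14.0% of all 32817 promoters searched, and an AP-1 match in 2 of 9 (Gzmb and Havcr2), against 6.75%. No window of the 9 held the TEAD motif GGAATG (12.6% of all promoters), the IRF motif (GAAA, then any 2 bases, then GAAA, in 2.97%) or the STAT motif TTCNNNGAA (7.01%), each searched on both strands. A match of letters is not a measured binding site, and the lack of one in this window says nothing about the factor.

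The 10 genes were mostly expressed by T and NK cells, with Havcr2 as the exception. The shares that follow pool all libraries, of which Y1 alone held 1779 of the 2978 CD8 T cells. Of the molecules of each gene in all cells that passed the limits, 93.0% of Gzmk, 90.1% of Pdcd1, 88.4% of Gzmb, 87.3% of Ctla4, 84.9% of Lag3, 84.0% of Fasl, 83.5% of Gzmc and 79.9% of Tigit were in Cd3e-positive cells. Prf1 was split, with 65.4% in Cd3e-positive cells and 28.4% in NK cells. Havcr2 had only 28.2% of its molecules in Cd3e-positive cells and 63.4% in other leukocytes. TIM-3 is also a receptor of macrophages and dendritic cells, and Havcr2 was at 106.5 to 202.4 UPM in Lyz2-positive leukocytes, where 39.4 to 73.4% of the cells carried it.

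**Figure D1:**
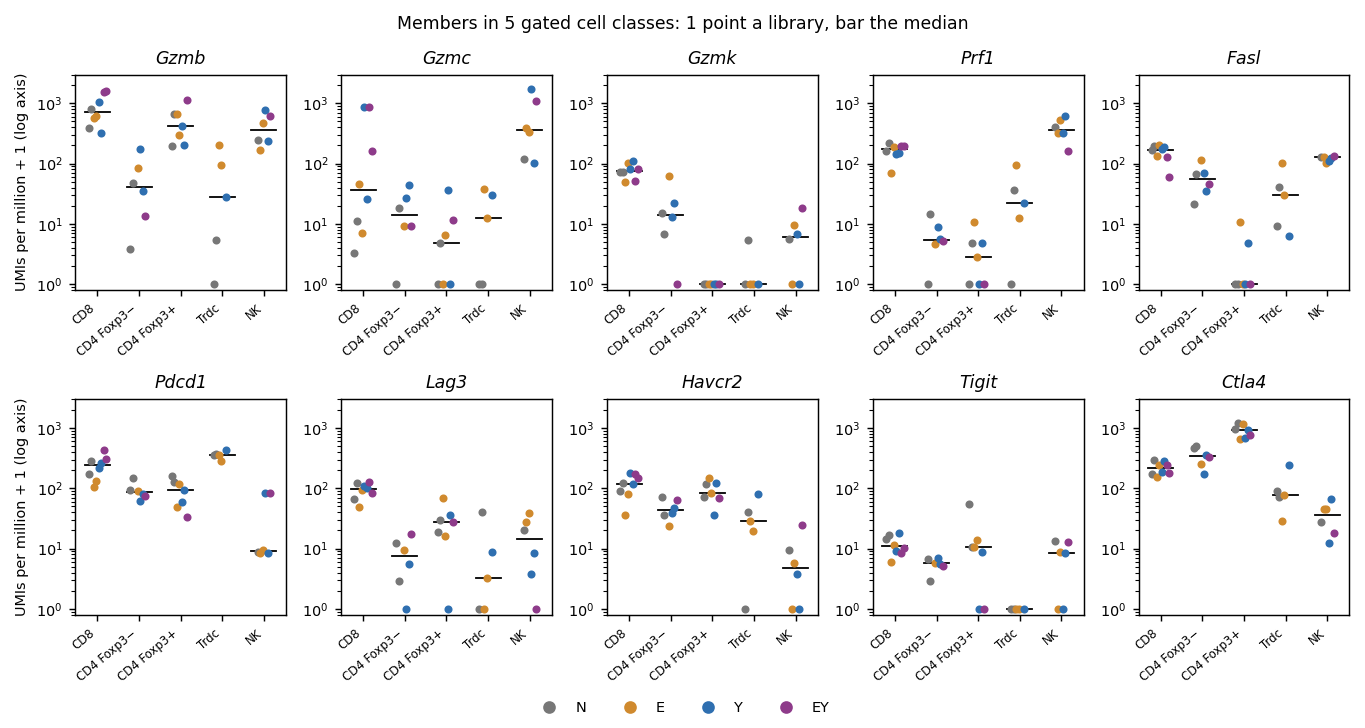
UPM plus 1 (log axis) of each gene in CD8 T cells, Foxp3-negative and Foxp3-positive CD4 T cells, Trdc T cells and NK cells, with 1 point for each library, coloured by genotype, and a bar at the median. Prf1 reached 603.1 UPM in NK cells, Ctla4 was highest in Foxp3-positive CD4 T cells, and Pdcd1 in Trdc cells lay at 278.2 to 427.6 UPM.

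CD8 T cells were compared with CD4 T cells of the same 7 libraries, with the library as a block (edgeR quasi-likelihood test on summed UMIs). Of the 10 genes, 8 were higher in CD8 T cells, 1 was lower and 1 did not pass, where 16.0% of 7757 genes tested were called in either direction. The median difference of the 10 genes was 2.05 on the log2 scale. Prf1 had 69.9 to 220.5 UPM across CD8 samples and 0 to 8.71 UPM in CD4 T cells, without overlap, a log2 difference of 5.35 ± 0.23 (SE, adjusted p = 2.03e-08). Gzmk, a granzyme of memory-like CD8 T cells, was 2.83 ± 0.33 higher (adjusted p = 4.39e-05), and Fasl 2.25 ± 0.20 higher (adjusted p = 4.9e-06). Among the checkpoints, Lag3 was 2.95 ± 0.32 higher (adjusted p = 3.01e-05) and Pdcd1 1.45 ± 0.22 higher (adjusted p = 0.000445). Gzmb was 1.85 ± 0.23 higher in CD8 T cells (adjusted p = 9.37e-05). These 6 genes were higher in 7 of 7 libraries and past the threshold under all 14 alternative settings run for them.

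The 2 remaining calls in favour of CD8 T cells rested on fewer libraries. Gzmc was 3.22 ± 0.78 higher (adjusted p = 0.0107, in 5 of 7 libraries), but it was not called by DESeq2 (adjusted p = 0.0601), nor by edgeR without Y1, where the difference was 2.32 (adjusted p = 0.0797). Havcr2 was 0.94 ± 0.25 higher (adjusted p = 0.0204, in 6 of 7 libraries) and lost its call without N2 (adjusted p = 0.06), E2 (adjusted p = 0.0598) or Y1 (adjusted p = 0.0522). Tigit was 0.93 ± 0.33 higher and did not pass (adjusted p = 0.0703), although it did without E1 (adjusted p = 0.036) and without cells carrying epithelial or myeloid markers (adjusted p = 0.0483). Ctla4 was the gene that was lower in CD8 T cells (log2 difference -1.11 ± 0.13, adjusted p = 4.58e-05).

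Within CD4 T cells Ctla4 was higher in cells with Foxp3, the transcription factor of regulatory T cells. Of the libraries, 6 had enough cells: N1, N2, E2, Y1, Y2 and EY1. Ctla4 was at 972, 1195, 1165, 677, 930 and 768 UPM in their Foxp3-positive cells, in that order. These values came from 12, 61, 65, 13, 46 and 25 cells. In Foxp3-negative cells of the same libraries Ctla4 was at 470.8, 506.6, 247.5, 174.6, 350.4 and 325.4 UPM. Each library's Foxp3-positive cells were above its Foxp3-negative cells, and the difference was 1.40 ± 0.16 (log2, adjusted p = 8.15e-06). Of 7 genes tested here 3 were higher in Foxp3-positive cells and 1 lower, where 8.19% of 6323 genes were called. The median difference of the 7 was 1.04.

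Of the effectors, Gzmb was higher and Fasl lower in Foxp3-positive cells. The Gzmb level was 198, 667, 301, 420, 204 and 1125 UPM in Foxp3-positive cells, in the order of libraries above, and 2.87, 46.2, 84.5, 170.6, 34.6 and 12.4 UPM in Foxp3-negative cells. It was higher in 6 of 6 libraries, by 2.81 ± 0.40 (log2, adjusted p = 9.45e-05). No level in Foxp3-negative cells reached the lowest one in Foxp3-positive cells, that of 12 cells in N1. In all, 1 Fasl molecule was found in 222 Foxp3-positive cells and 197 in 452 Foxp3-negative cells. Per molecule sequenced that is a ratio of 112, with an exact 95% interval of 19.9 to 4440 for counting error only (adjusted p = 2.88e-07). Havcr2 was 1.04 ± 0.26 higher in Foxp3-positive cells (adjusted p = 0.0142), in 3 of 6 libraries, and was not called by DESeq2 (adjusted p = 0.127) or without N2 (adjusted p = 0.141), E2 (adjusted p = 0.128) or Y2 (adjusted p = 0.0628). Pdcd1 (-0.05 ± 0.20, adjusted p = 0.956), Gzmc (-1.42 ± 0.67, adjusted p = 0.259) and Lag3 (1.57 ± 0.57, adjusted p = 0.113) did not pass. Lag3 did pass when any CD3 chain could mark a T cell (adjusted p = 0.0428). Gzmk, Prf1 and Tigit had too few molecules to be tested.

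NK cells and CD8 T cells of 6 libraries differed in which effector they carried. Prf1 and Gzmc were higher in NK cells and 7 genes were lower (Gzmb, Gzmk, Fasl and 4 of the 5 checkpoints), where 13.6% of 8458 genes were called. Tigit did not pass (log2 difference -0.75, adjusted p = 0.317), and the median difference of the 10 genes was -1.70. Prf1 in NK cells was 406.2, 314.4, 531.7, 316.4, 603.1 and 162.8 UPM in N2, E1, E2, Y1, Y2 and EY1, above the CD8 T cells in all of these libraries but EY1, and the log2 difference was 1.18 ± 0.22 (adjusted p = 0.00276). Gzmc was higher in NK cells in 6 of 6 libraries, by 2.29 ± 0.53 (adjusted p = 0.0109). Fasl was close between the classes, at 100.6 to 133.7 UPM in NK cells, and lower in NK cells (log2 difference -0.61 ± 0.15, adjusted p = 0.0151), a call that was lost without N2 (adjusted p = 0.0748) or E2 (adjusted p = 0.109). Gzmb was lower in NK cells (-1.07 ± 0.18, adjusted p = 0.0016). The log2 differences of the 4 checkpoints were -4.17 ± 0.28 for Havcr2 (adjusted p = 6.4e-07), -3.35 ± 0.40 for Pdcd1 (adjusted p = 9.15e-05), -2.88 ± 0.23 for Ctla4 (adjusted p = 2.86e-06) and -2.34 ± 0.36 for Lag3 (adjusted p = 0.000669). That of Gzmk was -3.81 ± 0.31 (adjusted p = 2.86e-06), and all 5 genes were lower in 6 of 6 libraries.

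Trdc T cells had more Pdcd1 and less of most killing genes than CD8 T cells. Pdcd1 was at 352.5, 374.8, 349.1, 278.2 and 427.6 UPM in N1, N2, E1, E2 and Y2, above the CD8 T cells of each of these 5 libraries, and the log2 difference was 0.89 ± 0.19 (adjusted p = 0.0136). That call was lost without E2 (adjusted p = 0.0668) and with any CD3 chain as the T cell mark (adjusted p = 0.0609). Of 9 genes tested Pdcd1 was the 1 that was higher and 7 were lower, where 9.17% of 6478 genes were called, and the median difference of the 9 was -2.70. The log2 difference was -3.42 ± 0.53 for Gzmb (adjusted p = 0.0017), -2.73 ± 0.50 for Prf1 (adjusted p = 0.00485, lower in 4 of 5 libraries), -2.70 ± 0.43 for Fasl (adjusted p = 0.00219) and -3.26 ± 0.44 for Lag3 (adjusted p = 0.000785). Gzmk had 1 molecule in 231 Trdc cells and 553 in 903 CD8 T cells, a ratio per molecule sequenced of 105 (exact 95% interval 18.8 to 4170, adjusted p = 1.34e-05). Havcr2 was lower (-1.48 ± 0.34, adjusted p = 0.0175) but not called without N2 (adjusted p = 0.0648) or E2 (adjusted p = 0.108), and Ctla4 was lower (-1.35 ± 0.28, adjusted p = 0.00951) but not called without E2 (adjusted p = 0.0583). Gzmc did not pass (-0.16 ± 0.51, adjusted p = 0.923). No Tigit molecule was found in 252 Trdc cells, which allows a share of up to 1.19% of cells with a molecule.

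**Figure D2:**
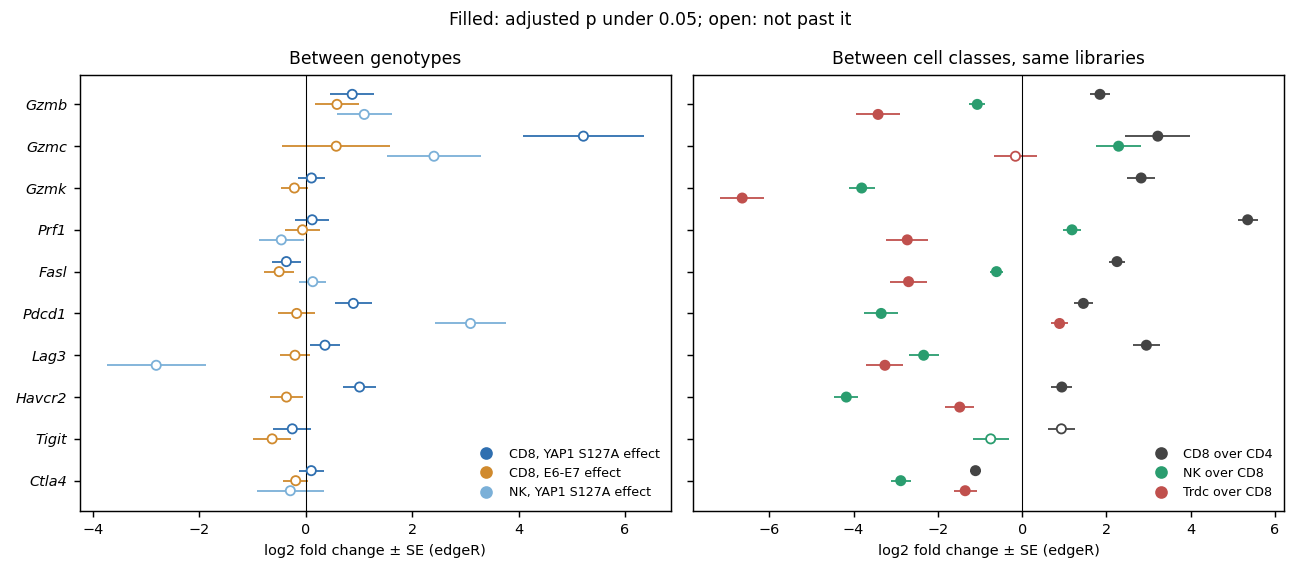
log2 fold change ± SE of the 10 genes by edgeR, between genotypes (left, effect of the YAP transgene or of E6-E7 in CD8 T cells and of the YAP transgene in NK cells) and between cell classes of the same libraries (right). Filled points passed an adjusted p of 0.05 and open points did not: none of the genotype effects plotted did, and of the class differences Tigit in both comparisons and Gzmc in Trdc cells did not. The Gzmk value of Trdc cells and the Lag3 value of NK cells rest on 1 and 2 molecules in 1 arm.

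Between genotypes, the largest EY against N differences of the 10 genes in CD8 T cells were those of Gzmb and Gzmc. With replicate 1 before replicate 2 here and in the values that follow, Gzmb was at 393.9 and 791.6 UPM in N, 562 and 616.7 UPM in E, 1037 and 319.1 UPM in Y, and 1565 and 1617 UPM in EY. Both EY libraries were above the other 6, while Y1 and Y2 were the highest and the lowest of these 6. The EY mean was 1591 ± 36.8 UPM (SD, n = 2) against 592.8 ± 281.2 UPM in N, a log2 difference of 1.45 ± 0.53 that did not pass over all genes (adjusted p = 0.501). Of the 10 genes none passed in EY against N, where 0% of 8302 genes were called by edgeR and 30 genes, none of them among the 10, by DESeq2. Gzmb, Gzmc and Fasl were the 3 at an unadjusted p under 0.05, as were 728 of all genes tested. The median log2 difference of the 10 was 0.10.

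Gzmc, a granzyme of strongly stimulated killer cells, was at or under 45.5 UPM in CD8 T cells without the YAP transgene. It was at 2.23 and 10.2 UPM in N, 45.5 and 6.18 UPM in E, 869 and 25.0 UPM in Y, and 853.8 and 161.9 UPM in EY. Y1, EY1 and EY2 stood above the other 5 libraries, and Y2 fell within the range of the E libraries. The log2 difference was 6.0 ± 1.74 in EY against N (adjusted p = 0.415) and 5.84 ± 1.73 in Y against N (adjusted p = 1), and the Y against N difference was 1.58 without Y1. In Y against N 0% of 8302 genes were called by edgeR, 13 by DESeq2 and none of the 10 by either, with 1 of the 10 and 277 of all genes at an unadjusted p under 0.05.

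With the 4 YAP libraries set against the other 4 in an additive model, 25 genes were called, 0.322% of 7753, all of them higher. None of the 10 was among these. At an unadjusted p under 0.05 were 3 of the 10 (Gzmc, Pdcd1 and Havcr2) and 713 of all genes. The 10 had a median log2 difference of 0.24. Gzmc differed by 5.22 ± 1.14 (adjusted p = 0.116). It passed by DESeq2, the 1 call that DESeq2 made among the 10 (5.25, adjusted p = 0.00262), without cells carrying epithelial or myeloid markers (5.86, adjusted p = 0.0199) and without Y2 (5.56, adjusted p = 0.0421), and fell to 3.69 without Y1. The E6-E7 effect in the same model called 0% of 7753 genes and none of the 10 by either tool, with none of the 10 and 414 of all genes at an unadjusted p under 0.05. The median of the 10 was -0.20.

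**Figure D3:**
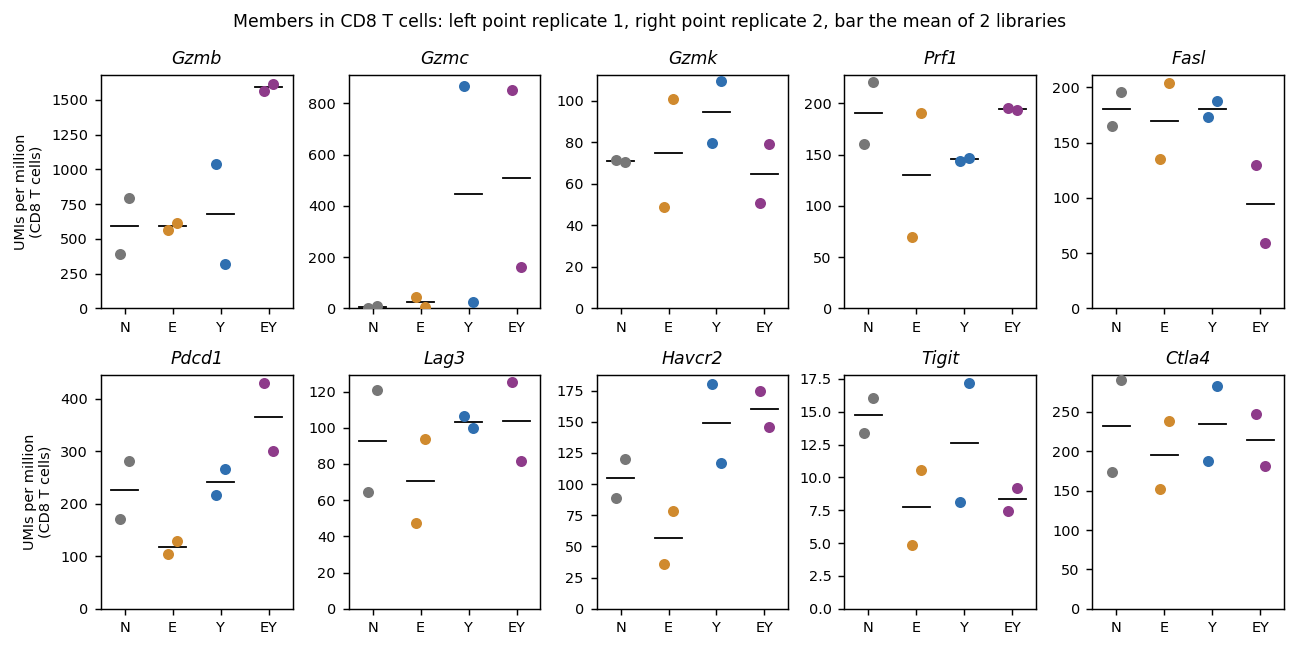
UPM of each gene in CD8 T cells (linear axes from 0), with 1 point for each of the 8 libraries and a bar at the mean of the 2 libraries of a genotype. Gzmb in EY1 and EY2 (1565 and 1617 UPM) lies above all other libraries, Gzmc is high in Y1 and EY1 but not in Y2, and Pdcd1 is lowest in E.

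Gzmc separated into a number of cells and an amount per cell. It was found in 1.19% and 5.19% of CD8 T cells of the N libraries, 5.83% and 4.58% of those of E, 33.6% and 6.36% of those of Y, and 29.7% and 13.3% of those of EY. Expected at an equal depth of 1500 UMIs per cell, the shares were 0.683%, 1.45%, 3.12%, 0.761%, 18.9%, 2.29%, 14.9% and 8.45% in the same order. A positive cell held on average 1, 1.47, 4.67, 1.27, 17.8, 2.29, 26.6 and 6.15 Gzmc molecules. The share and the amount were thus both high in Y1, EY1 and EY2, and a positive epithelial cell of Y1 held 1.03 molecules. The CD4 T cells of Y1, at a median of 5253 UMIs, had Gzmc in 13.8% of 87 cells and 27.1 UPM, and its epithelial cells, at a median of 18400 UMIs, in 10.6% of cells and 5.89 UPM. At the equal depth of 1500 UMIs these shares were 4.09% and 1.02%.

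In Y1, EY1 and EY2, the libraries where Gzmc was high, Gzmc-positive CD8 T cells also carried Gzmb more often than Gzmc-negative cells: 84.9% against 63.5% in Y1, 93.0% against 67.6% in EY1 and 90.0% against 73.3% in EY2. They were also the deeper cells, with median UMI counts of 6893 against 5352, 11750 against 7096 and 4654 against 3621, and the part of depth in these shares was not tested. Of the 5 other libraries, with 1 to 19 Gzmc-positive cells each, 3 had the same order, whereas Y2 had Gzmb in 28.6% of 7 against 32.0% of 103 cells and N1 in 0 of 1 against 41.0% of 83 cells. Gzmc was higher in cells with the cycling gene Mki67 than in those without it in the same 3 libraries: Mki67-positive and Mki67-negative cells had 928.4 and 845.2 UPM in Y1, 1997 and 392.5 UPM in EY1, and 228.9 and 112.2 UPM in EY2. Where Gzmc was low, the Mki67-positive cells of E2 had slightly more (7.22 and 5.84 UPM) and those of N1, N2, E1 and Y2 less, for example 16.1 and 75.6 UPM in E1. For Gzmb the corresponding levels were 1021 and 1043 UPM in Y1, 894.8 and 1836 UPM in EY1, and 1655 and 1590 UPM in EY2.

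**Figure D4:**
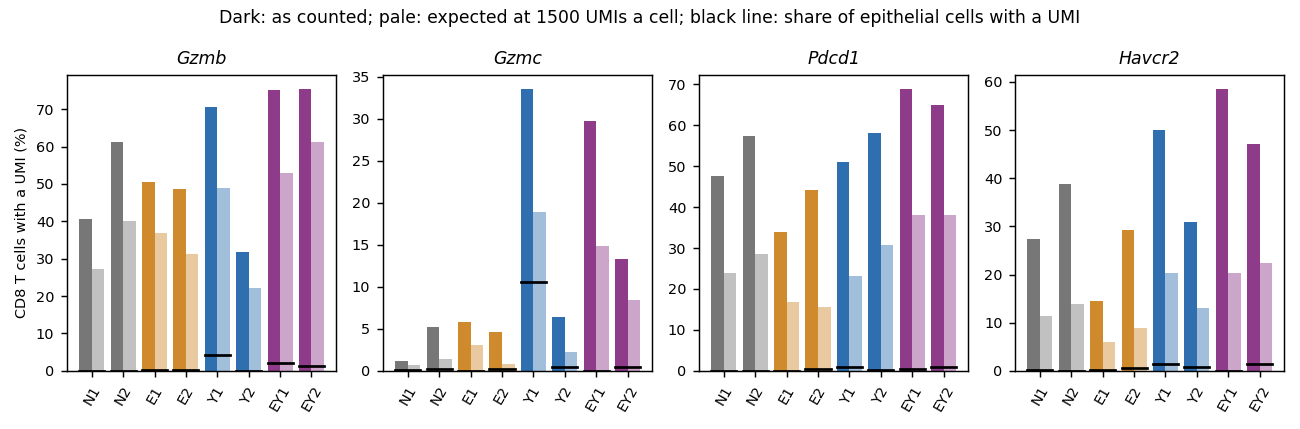
Percentage of CD8 T cells with at least 1 molecule of Gzmb, Gzmc, Pdcd1 or Havcr2 in each library, as counted (dark) and expected at 1500 UMIs per cell (pale), with a black line at the share of epithelial cells of that library. Gzmc was found in 33.6% of CD8 T cells in Y1 against 10.6% of its epithelial cells, and in 29.7% in EY1.

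The other effectors did not pass between genotypes in CD8 T cells. Fasl was at 164.7 and 195.6 UPM in N, 134.8 and 204.2 UPM in E, 173.3 and 187.7 UPM in Y, and 129.7 and 59.2 UPM in EY. The EY libraries were the lowest, and the EY against N difference was -0.88 ± 0.38 (adjusted p = 0.565). Prf1 was at 160.2 and 220.5 UPM in N, 69.9 and 190.1 UPM in E, 144 and 147 UPM in Y, and 195.4 and 193.5 UPM in EY, so that E and EY overlapped N and Y lay under it. Gzmk ranged from 48.7 UPM in E1 to 109.5 UPM in Y2, with the libraries of the 4 genotypes interleaved.

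Among checkpoints, Pdcd1 was lowest in E and highest in EY. It was at 171.3 and 281.5 UPM in N, 104 and 129.7 UPM in E, 216.2 and 265.9 UPM in Y, and 428.8 and 300.1 UPM in EY. Each library of E was below, and each of EY above, all other libraries. E against N differed by -1.02 ± 0.32 (log2, adjusted p = 1), and EY against N by 0.71 ± 0.32 (adjusted p = 0.573). In E against N 4 genes were called by edgeR, 0.0482% of 8302, and 17 by DESeq2, none of the 10 by either, with 1 of the 10 (Pdcd1) and 233 of all genes at an unadjusted p under 0.05 and a median of -0.38 for the 10. The interaction, the amount by which EY differed from the sum of the E and Y effects on the log2 scale, was 1.66 ± 0.45 for Pdcd1 (adjusted p = 1). For that contrast edgeR called 0% of 8302 genes and none of the 10, and DESeq2 14 genes and none of the 9 it tested, with 1 of the 10 and 200 of all genes at an unadjusted p under 0.05 and a median of 0.48 for the 10.

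Havcr2 in CD8 T cells was at 89.0 and 120.3 UPM in N, 35.7 and 78.5 UPM in E, 180.4 and 117.3 UPM in Y, and 174.5 and 146.1 UPM in EY. The E libraries were the lowest, and 3 of the 4 YAP libraries lay above N2, with Y2 just under it. The YAP effect was 1.01 ± 0.31 (adjusted p = 0.286) and E against N -0.89 ± 0.40 (adjusted p = 1). Lag3 ranged from 47.1 UPM in E1 to 125.3 UPM in EY1 and Ctla4 from 152.7 UPM in E1 to 290.3 UPM in N2, both with overlapping genotypes. Tigit ranged from 4.87 UPM in E1 to 17.2 UPM in Y2. E1 had the lowest value of the 8 libraries for 7 of the 10 genes, all but Gzmb, Gzmc and Fasl.

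At least 3 of the 5 checkpoints were found together in 22.6% and 38.3% of CD8 T cells of the N libraries, 10.7% and 27.5% of those of E, 34.7% and 33.6% of those of Y, and 52.4% and 29.1% of those of EY. EY1 was the highest and E1 the lowest, and EY1 and E2 were also the deepest libraries, at 8132 and 8314 median UMIs per CD8 T cell. Between 69.9% (E1) and 92.9% (Y1) of CD8 T cells carried at least 1 of the 5 effectors. Havcr2-positive cells carried Pdcd1 more often than Havcr2-negative cells in all 8 libraries, for example in 46.7% against 31.8% in E1 and 63.9% against 38.3% in Y1. The Havcr2-positive cells were also the deeper ones in all 8 libraries, for example with medians of 4922 against 3579 UMIs in E1 and 6545 against 5116 in Y1. The part of depth in these shares was not tested.

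Transcripts of other cells were present in the CD8 gate. The 6 macrophage genes summed to 8.12 to 145.2 UPM without the YAP transgene and 118.4 to 272.1 UPM with it, the 6 neutrophil genes to 3.25 to 251.4 UPM and 21.9 to 4215 UPM, and the 6 epithelial genes to 488.8 to 6247 UPM and 395.2 to 4560 UPM. The 5 mast cell genes were at 0 in all 8 libraries. The 11 NK genes, which include Gzma, summed to 387.7 to 694 UPM without the transgene. They summed to 1412, 265.9, 2436 and 1808 UPM in Y1, Y2, EY1 and EY2. In Y1, EY1 and EY2 most of the sum was Gzma, whose levels are given below. Gzma was also called higher in CD8 than in CD4 T cells, so the sum does not measure NK transcripts alone. Ncr1 itself was at 0 in N1, Y2, EY1 and EY2. The part of transcripts of other cells in the Gzmb and Gzmc values was not tested.

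In CD4 T cells none of the tested genes among the 10 passed between genotypes. The Y against N comparison called 6 genes by edgeR, 0.0762% of 7871, and 16 by DESeq2, and E against N called 2, 0.0254% of 7871, and 12 by DESeq2. None of the 8 genes of the 10 that edgeR tested was called, nor any of the 5 that DESeq2 tested. By edgeR 1 in each was at an unadjusted p under 0.05. They were Gzmc in Y against N (2.02 ± 0.87, adjusted p = 0.787) and Fasl in E against N (1.21 ± 0.47, adjusted p = 1). Over all 7871 genes, 485 and 274 were at such an unadjusted p. The YAP effect called 53 genes, 0.766% of 6923, and 105 by DESeq2, and the E6-E7 effect 2, 0.0289% of 6923, and 18 by DESeq2. Again none of the 7 genes that edgeR tested was called, nor any of the 7 and 5 that DESeq2 tested. By edgeR 1 (Gzmc, 1.65 ± 0.71, adjusted p = 0.515) and 0 of the 7 were at an unadjusted p under 0.05. Over all 6923 genes, 636 and 354 were. The medians of the tested genes among the 10 in these comparisons lay between -0.33 and 0.02. Gzmb in CD4 T cells was at 29.7 and 355 UPM in N, 372.7 and 169 UPM in E, 206.9 and 98.0 UPM in Y and 497.3 UPM in EY1, where the 2 N libraries spanned much of the range. The share of Foxp3-positive cells among CD4 T cells was 11.5% in N1 and 44.9% in N2, at median depths of 2914 and 6448 UMIs per cell. A cell with no Foxp3 molecule counted as Foxp3-negative at any depth, and the part of depth in these shares was not tested. EY2 held 9 CD4 T cells, so EY could not be compared with N. Transcripts of other cells were present in the CD4 gate too. The 6 neutrophil genes summed to 2.48 to 62.9 UPM without the YAP transgene and to 17.3 to 22560 UPM with it. The 6 macrophage genes summed to 12.4 to 511.3 UPM and 410.4 to 759.9 UPM. Genes called higher for YAP included the myeloid genes Lyz2, Csf1r and Retnlg, and H2-Ab1 of antigen-presenting cells. The part of such transcripts in the values of this gate was not tested.

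Gzmb was the 1 gene of the 10 that passed between genotypes, in the small Trdc gate. Among 26 and 39 Trdc cells of N1 and N2, 0 and 1 carried Gzmb, with 0 and 1 molecules. Among 25 and 46 cells of E1 and E2 there were 4 and 8, with 22 and 41 molecules, and among 95 cells of Y2 there were 6, with 10 molecules. The E libraries were at 202.1 and 93.5 UPM and the N libraries at 0 and 4.36 UPM, without overlap. The ratio of E to N per molecule sequenced was 40.4 (exact 95% interval 7 to 1620, for counting error only), and the E6-E7 effect passed by edgeR (adjusted p = 0.000239). Of 6 genes tested Gzmb was the only call, where 2.10% of 4723 genes were called, and the median of the 6 was 0.34. DESeq2 did not call it (adjusted p = 0.0677), nor did edgeR when any CD3 chain could mark a T cell (log2 difference 2.20, adjusted p = 0.22). The 11 NK genes summed to 32.8 and 418.4 UPM in N1 and N2, 652.3 and 275.9 UPM in E1 and E2 and 110.9 UPM in Y2, and Ncr1 was at 0 in N1 and Y2 and at 13.1, 27.6 and 13.7 UPM in N2, E1 and E2. The same E6-E7 contrast called other genes of the gate too. With Y2 the only YAP library, the fitted effect compared E1 and E2 with N1 and N2. The means without E6-E7 given next also include Y2. Higher for E6-E7 were the chemokine gene Xcl1 (a mean of 2045 CPM, the per-million scale after TMM normalisation, in E1 and E2 against 42.7 CPM in N1, N2 and Y2), the granule gene Nkg7, the cycling gene Pclaf and the interferon-stimulated genes Ifit1, Isg15 and Bst2. Lower were 4 of the 6 epithelial genes (Krt5 at 73.1 against 743.4 CPM, Krt14, Sfn and Epcam), C1qa and C1qb of macrophages, H2-Ab1 of antigen-presenting cells, Areg and the transcription factor gene Id3. The part of all these transcripts in the Gzmb value was not tested, and the YAP effect could not be fitted with 1 YAP library.

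In NK cells none of the 7 tested genes passed between genotypes. Gzmc was at 116.5 UPM in N2, 393.1 and 338.2 UPM in E1 and E2, 1726 and 103 UPM in Y1 and Y2, and 1087 UPM in EY1. Y1 and EY1 were the highest here as in CD8 T cells, and Y2 was the lowest. The YAP effect on Gzmc was 2.41 ± 0.88 (adjusted p = 0.633) and that on Gzmb 1.10 ± 0.51 (adjusted p = 0.694). The YAP effect called 0% of 5261 genes by edgeR and 15 by DESeq2, none of the 7 by either, with 3 of the 7 (Gzmc, Pdcd1 and Lag3) and 384 of all genes at an unadjusted p under 0.05 and a median of 0.13 for the 7. The E6-E7 effect called 0% of 5261 genes by edgeR and 4 by DESeq2, none of the 7 by either, with 0 of the 7 and 166 of all genes at an unadjusted p under 0.05 and a median of 0.37.

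Pdcd1 and Lag3 in NK cells rested on few cells. Pdcd1 was at 7.9, 7.37, 8.62, 81.9, 7.36 and 81.4 UPM in N2, E1, E2, Y1, Y2 and EY1, and the high values of Y1 and EY1 came from 4 of 50 and 1 of 22 cells. Lag3 had 80 molecules in 370 NK cells of N2, E1 and E2 and 2 in 93 cells of Y1, Y2 and EY1, a ratio of 8.92 (exact 95% interval 2.39 to 74.9, adjusted p = 0.633). The 6 neutrophil genes summed to 33100 UPM in NK cells of EY1 and to between 21.1 and 154.8 UPM in those of N2, E1 and E2, and the part of such transcripts in these values was not tested.

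A list of 28 other cytotoxic genes held further granzymes, granule proteins, chemokines and killer receptors. Over all genes tested, 16.0% were called in CD8 against CD4 T cells and 13.6% in NK against CD8 T cells. The shares were 9.17% for Trdc against CD8 T cells and 8.19% for Foxp3-positive against Foxp3-negative cells. Of 23 genes of the list tested, 15 were higher and 1 lower in CD8 than in CD4 T cells, with a median of 2.54. The largest were the granzymes Gzmf (8.58) and Gzma (6.02) and the chemokines Ccl5 (5.43) and Ccl4 (4.28). In Trdc cells 12 of 22 were lower than in CD8 T cells and 0 higher (median -1.31), led by Gzma (-5.97), Ccl5 (-3.90), Ccl3 (-3.15) and Ifng (-3.14), and in Foxp3-positive cells 8 of 20 were lower and 1 higher (median -0.73), led by Klrk1 (-5.84), Ifng (-5.10), Klrd1 (-3.16) and Ccl4 (-2.73). NK cells had 4 of 23 higher and 4 lower than CD8 T cells (median 0.04), with log2 differences of 2.10 for Gzma, 1.47 for the granzyme B inhibitor Serpinb9, 1.46 for Serpinb6b and -3.64 for Gzmf. Between genotypes none of the 23 or 24 tested passed in CD8 T cells. Nkg7 was lower for YAP in CD4 T cells (-1.47, adjusted p = 0.031), where 0.766% of all genes were called. It was higher for E6-E7 in Trdc cells (2.50, adjusted p = 0.000922), where 2.10% were called. Gzma in CD8 T cells was at 364.9 and 453.7 UPM in N, 524.7 and 197.6 UPM in E, 1084 and 48.5 UPM in Y, and 2200 and 1616 UPM in EY, and Gzmf at 0, 7.68, 40.6, 2.21, 312.2, 0, 682.3 and 277.7 UPM in the order N1, N2, E1, E2, Y1, Y2, EY1 and EY2. For both genes Y1, EY1 and EY2 were above the other 5 libraries, as they were for Gzmc.

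Of 20 further co-inhibitory and co-stimulatory receptors, 16 were tested for the YAP effect in CD8 T cells. Of these 2 passed, where 0.322% of 7753 genes were called, both higher and both co-stimulatory receptors of the TNF receptor family. Tnfrsf4 (OX40) was at a mean of 239.2 CPM with and 45.2 CPM without the transgene, a log2 difference of 2.45 ± 0.35 (adjusted p = 0.0374). Tnfrsf18 (GITR) was at 334.8 and 134.1 CPM, a difference of 1.32 ± 0.20 (adjusted p = 0.0374). The median of the 16 was 0.17. The 25 calls of this contrast fell to 1 without E2 or Y1, to 2 without N1 and to between 5 and 10 without N2, E1, EY1 or EY2. So at most 1 of these 2 receptors stayed called without E2 or Y1, and their own values under the alternatives are not given. The 4 regulatory T cell genes summed to 102.4 to 172.2 UPM in the CD8 gate without the transgene. With it they summed to 182 to 291.6 UPM. The part of regulatory T cell transcripts in the Tnfrsf4 and Tnfrsf18 values was not tested. Over all genes tested, 16.0% were called in CD8 against CD4 T cells. Of 18 receptors tested there, 5 were higher and 9 lower in CD8 T cells (median -0.47). Among them were Cd160 at 4.50, Tnfrsf4 at -2.88, Cd244a at 2.85 and Nt5e at -1.62. None of 15 tested transcription factors of effector and exhausted T cells passed between genotypes in CD8 T cells, and 4 were higher and 5 lower in CD8 than in CD4 T cells, led by Maf (-2.89), Nr4a2 (2.71), Ikzf2 (-2.56) and Tbx21 (1.67). Of 10 interferon-stimulated genes 3 were among the 4 calls of E against N in CD8 T cells: Rsad2 (4.06), Usp18 (2.82) and Ifit1 (2.56).

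A ligand of PD-1 and the receptor of Fasl are given here for the epithelium and its myeloid cells. Other ligands are not printed. Cd274, which encodes PD-L1, was at 1.0 to 6.36 UPM in epithelial cells and 67.1 to 309.5 UPM in Lyz2-positive leukocytes across the 8 libraries, and Fas, the receptor of Fasl, at 3.32 to 5.61 UPM and 15.3 to 53.2 UPM.

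Across the 26 sums of a library and a lymphocyte class with at least 20 cells, the genes most like each member were described by Pearson's r of log2(CPM + 10) among 5510 genes, where sums of a library share its depth and sums of a class its cell type. Prf1 was most like Ugcg (0.929), Klre1 (0.92) and Ctsw (0.917), and Ctla4 most like Slamf1 (0.931), Cd5 (0.925) and Icos (0.913). Gzmk was most like Cd8b1 (0.901), Lag3 most like Cd8a (0.84), Fasl most like Ccl5 (0.881), Havcr2 most like Il21r (0.89) and Pdcd1 most like Cd3e (0.779). Gzmb was most like Gimap1 (0.826), Tigit most like Dgkh (0.841) and Gzmc most like Serpinb9 (0.812). Gzmb and Gzmc had an r of 0.544 with each other.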

How the data were processed

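Single-cell RNA-seq libraries (10x Genomics, 3′; the labels and the methods name different kit versions) of 8 samples were aligned to mm10 and counted by the authors with Cell Ranger (5.0.0 in the file headers); the deposited matrices hold raw UMI counts of filtered barcodes, replicates not pooled. The labels number no replicates, so numbers follow the deposit order and pair nothing, and 1 N sample carries 2 animal numbers and may pool animals. Barcodes with fewer than 1000 or more than 5500 genes, over 30000 UMIs or over 7% mitochondrial UMIs were dropped, which left 1520 to 5407 cells per library. Gates needed 1 UMI of each positive marker and 0 of each negative one. UMIs were summed per library and gate and tested with edgeR 4.0.16 (R 4.3.3; filterByExpr, TMM, quasi-likelihood test, Benjamini-Hochberg over all genes, threshold 0.05), for libraries with at least 20 cells (10 for Foxp3-positive cells), with the library as a block between classes. SE is |log2 difference| divided by the square root of F. Libraries, not cells, are the replicates, from 2 mice per genotype by the study's methods. Shares have exact Clopper-Pearson intervals for counting error only, and the limit for 0 cells is 3 counts.

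All 10 genes are named in the comparisons between cell classes. Between genotypes the numbers tested and called are given, and some contrasts name only part of the 10. Further gene lists are given by their counts. List genes are named from the up to 4 called per list with the largest change and at least 20 CPM in 1 arm. Not all of these are printed. Genes, lists and tests were chosen with earlier results of these data known. Alternatives were RLE scaling, no filter on low genes, DESeq2 1.42.0, a minimum of 200 genes per cell, any CD3 chain, removal of marker or Scrublet doublets (scanpy 1.11.5, which marked 0.028% to 2.05% of cells and cannot have worked in E1) and leaving out each library. The test was checked on simulated data. Promoter windows are from RefSeq, positions of genes from the GRCm38 annotation.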

Additional observations from a re-analysis of the deposited data

How the results depend on the processing

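No gene of the 10 that was past the threshold, or at an unadjusted p under 0.05, changed direction under the alternatives run. Other values that did not pass did change sign. Some lay near 0, such as Gzmb in CD8 T cells for Y against N (0.22, from -0.94 to 0.85), Gzmc for Trdc against CD8 T cells (-0.45 to 0.13) and Pdcd1 in the Foxp3 split (-0.17 to 0.06). Others were larger, such as Gzmc in CD8 T cells for the interaction (-1.17, from -3.05 to 3.07) and for E against N (1.33, from -0.44 to 3.21). With no filter on low genes the calls rose to 296 (CD8 T cells, EY against N), 179 (Y against N), 97 (E against N), 81 (interaction), 524 (YAP effect) and 119 (E6-E7 effect), in CD4 T cells to 221 (Y against N), 101 (E against N), 393 (YAP) and 150 (E6-E7), in Trdc cells to 174, in NK cells to 138 (YAP) and 91 (E6-E7), and to 1013 for Trdc against CD8 T cells. Only this setting called Gzmb and Gzmc in EY against N, Gzmc in Y against N, Pdcd1 in the interaction and Gzmb, Pdcd1 and Havcr2 for YAP in CD8 T cells. It was also the only one to call Gzmb for E6-E7 in CD4 T cells and Gzmb, Gzmc and Pdcd1 for YAP in NK cells. The cause was not tested. DESeq2 gave 30, 13, 17, 14 and 140 in the first 5 CD8 comparisons, 16, 12, 105 and 18 in CD4 T cells, 21 in Trdc cells, 15 and 4 in NK cells and 328 for the Foxp3 split. Without marker doublets the counts were 20 (CD8, EY against N), 14 (E against N), 1 (interaction), 86 (YAP), 10, 15 and 1 (CD4, E against N, YAP, E6-E7), 57 (Trdc) and 2 (NK, E6-E7). Any CD3 chain gave 14 (CD8, YAP), 0, 0, 18 and 0 (CD4), 4 (Trdc) and 14 (NK, E6-E7). Without Scrublet doublets there were 50 (CD8, YAP), 13 and 8 (CD4, Y and E against N), with RLE scaling 6 (CD4, E against N), and with a minimum of 200 genes 1 (CD8, interaction).

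Leaving out 1 library gave 0 to 7, 0 to 2, 0 to 8, 0 to 1, 1 to 36 and 0 to 0 calls in the 6 CD8 comparisons, in the order above, 3 to 50, 0 to 15, 3 to 76 and 0 to 3 in CD4 T cells, 10 to 147 in Trdc cells, 0 to 35 and 0 to 21 in NK cells, and 899 to 1210, 614 to 1105, 330 to 735 and 285 to 577 for CD8 against CD4, NK against CD8, Trdc against CD8 and the Foxp3 split. A lone library of an arm was then assumed to vary like the others. Of 402 values of genes past the threshold under alternatives, 384 stayed past it. No paired analysis between genotypes was possible because the labels give no replicate numbers. Depth limits Tigit, and in Trdc and NK cells every gene: 5 to 95 Trdc cells and 1 to 207 NK cells per library.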
